A study of Ovis aries with 2 samples.

Results

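Native smooth muscle barcodes are the cell barcodes of a sheep carotid artery that carry transcripts of the vascular smooth muscle contractile apparatus. They were taken from the native library by 4 genes: S, the summed unique molecular identifiers (UMIs, each standing for 1 captured transcript) of ACTA2, MYH11, CNN1 and TPM2, had to be at least 3. S also had to be at least 2 times the UMIs of each of 3 other marker lists, which were PECAM1, CDH5, VWF, CLDN5, ESAM and TIE1 for endothelium, C1QA, C1QB, AIF1, CSF1R, CTSS and CD163 for macrophages, and CD3D, CD3E, CD3G, CD2 and LCK for T or NK cells. Barcodes needed at least 500 UMIs and at most 20% of their UMIs from 13 mitochondrial genes. This gave 81 of the 11371 native barcodes, or 0.712%. They were 0.729% of the 11108 barcodes within both limits (exact Clopper-Pearson 95% interval 0.580% to 0.906%).

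The study set cells of a native artery of sheep aged 1 to 2 years beside cells of an acellular vascular graft titled H2R5-ATEV, both explanted 12 weeks after implantation of the graft. Each tissue gave 1 droplet-based single-cell RNA library, with a target of 10000 cells per capture, and the number of animals was not stated. One title calls the native sample an aorta, while its tissue and source name the carotid artery. Cells were released in 20 min by enzymes held inside the clamped vessel, so the sample is not a whole-wall digest and the share of smooth muscle barcodes is not a share of the artery's cells.

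The native library held 43183715 UMIs. The 81 smooth muscle barcodes held 646766 of them, with a median of 4399 UMIs per barcode (range 583 to 40868), while the 11027 other native barcodes within the limits held 42214188 UMIs at a median of 1382. The 10 deepest members held 35.5% of the members' UMIs, so summed values lean on few cells. In the graft library, 1229 barcodes gave 1088 within the limits, of which the same rule took 177, with 8326004 UMIs and a median of 30107. The libraries shared 7 barcodes, and 0 of these were native smooth muscle barcodes.

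Levels are UMI counts summed over the named barcodes and scaled to a total of 1000000 (CPM), with exact Poisson 95% intervals, and ratios carry exact conditional binomial 95% intervals. All intervals cover counting error only. With 1 library per tissue, and members chosen on measured counts of the same library, nothing was tested and replicates cannot be compared. A gene counts as higher or lower when the ratio of CPM, with 5 CPM added on each side, reaches 2-fold. Such counts, and the differences described below, are descriptions of this library.

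Vascular smooth muscle cells form the media of an artery, where they set the vessel's calibre by contracting on actin and myosin and lay down the elastic fibres and collagens that bear pressure. Their contraction is triggered by calcium entry and myosin light chain phosphorylation, and it is relaxed by nitric oxide through cyclic GMP. In culture, injury and disease they can lose contractile proteins and make more matrix, a change known as modulation. The gene roles named here are background, mostly from work in humans and mice.

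The genes that chose the barcodes are given first and support nothing. ACTA2, the smooth muscle actin, was at 3541 CPM in native smooth muscle barcodes and 4.97 CPM in other native barcodes. MYH11, the smooth muscle myosin heavy chain, was at 2210 CPM in native smooth muscle barcodes and 2.58 CPM in others. CNN1, the actin-binding protein calponin, was at 244 and 0.450 CPM in the same order, and TPM2, a tropomyosin, at 1361 and 18.6 CPM. S ran from 3 to 326 UMIs, with quartiles of 6, 15 and 87. ACTA2 was detected in 74 of the 81 barcodes, MYH11 in 69, TPM2 in 59 and CNN1 in 40.

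Smooth muscle genes that the rule did not use were present in the same barcodes. TAGLN, the actin cross-linking protein transgelin, had a lower quartile of 455, a median of 1214, an upper quartile of 3358 and a maximum of 13255 CPM over the 81 barcodes. Its summed level was 2542 CPM (2420 to 2668) in native smooth muscle barcodes and 192 CPM in other native barcodes, a ratio of 13.2 (12.5 to 13.9). ITGA8, the integrin alpha chain that marks smooth muscle and mesangial cells, had a median of 294 CPM per barcode, with quartiles of 0 and 920 and a maximum of 7729. Its summed level was 530 CPM (476 to 590) in native smooth muscle barcodes and 1.87 CPM in others, a ratio of 283 (221 to 367). All 81 barcodes had at least 1 UMI of 7 smooth muscle genes outside the rule (TAGLN, MYL9, MYLK, LMOD1, SYNPO2, ITGA8 and ACTG2), and 74 had 3 or more. Among the 11027 other native barcodes, which were shallower, 4900 had at least 1 and 1248 had 3 or more.

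Native T or NK, macrophage, endothelial and fibroblast barcodes, taken by the same form of rule on their own marker lists, served for comparison within the artery. At an equal depth of 500 UMIs per barcode, ITGA8 was detected in 18.5% of native smooth muscle barcodes, in 0% of T or NK barcodes and in 0% of macrophage barcodes, classes that should lack it. TAGLN was detected in 49.4% of native smooth muscle barcodes, 0.844% of T or NK barcodes and 4.63% of macrophage barcodes. Before thinning, the median depths were 4399 UMIs in smooth muscle barcodes, 5731.5 in T or NK barcodes and 1807 in macrophage barcodes, and ITGA8 and TAGLN were detected in 55 and 66 of the 81 smooth muscle barcodes. In the 11027 other native barcodes, ITGA8 was detected in 50 and TAGLN in 3690, so TAGLN was not confined to smooth muscle barcodes. Shares at equal depth in endothelial and fibroblast barcodes are not given here. MFAP4, a microfibril-associated protein given as a marker with ITGA8, was shared more widely: it was at 699 CPM in native smooth muscle barcodes, 418 CPM in native fibroblasts and 99.7 CPM in all other native barcodes.

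**Figure D1:**
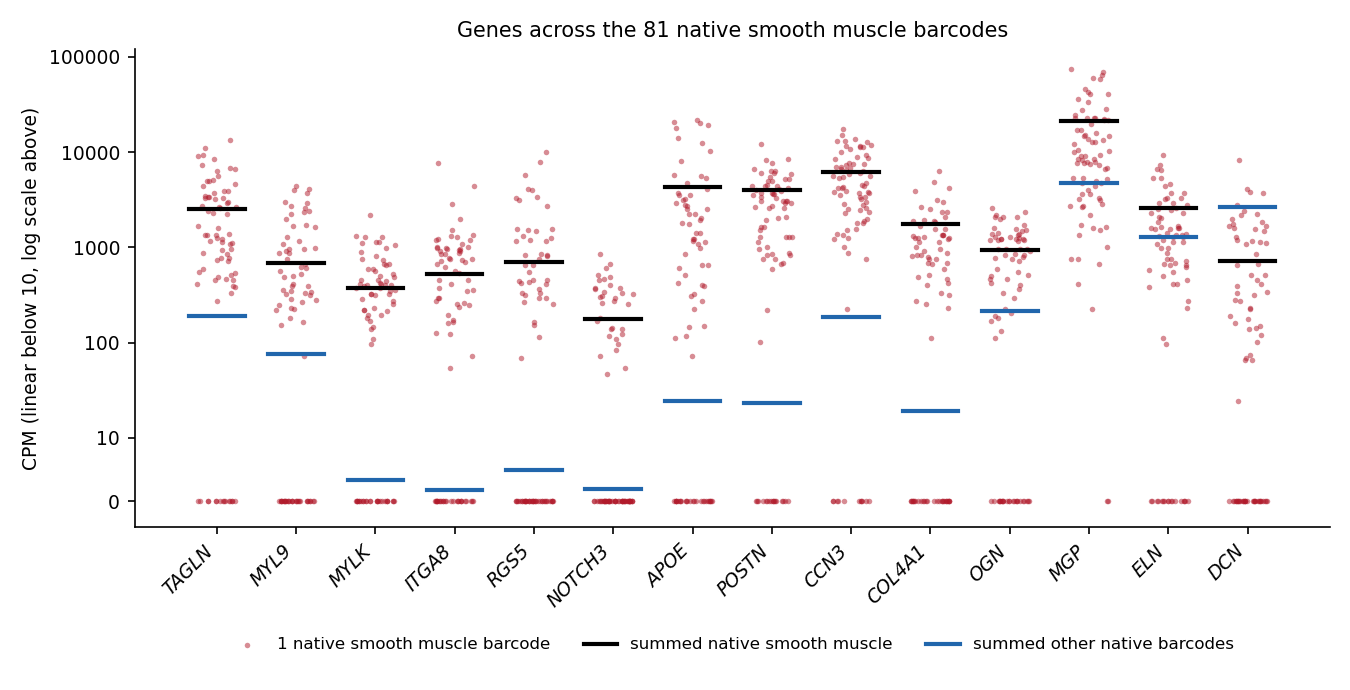
CPM of single genes (linear below 10, log scale above) in each of the 81 native smooth muscle barcodes, with black lines for their summed level and blue lines for the summed level of the other native barcodes. ITGA8 and RGS5 are at 0 in many members although their summed levels lie far above the other barcodes, while MGP is detected in 79 of the 81.

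Markers of the cell types the rule set aside were low. The 6 endothelial markers summed to 176 CPM in native smooth muscle barcodes and 1905 CPM in other native barcodes, the 6 macrophage markers to 125 and 2057 CPM, and the 5 T or NK markers to 9.28 and 283 CPM, with CD3D at 0 in the members. These lists took part in the choice. Of lists that did not, B or plasma cell markers summed to 10.8 CPM in native smooth muscle barcodes and 39.2 CPM in others, and neutrophil markers to 0 and 9 CPM. Schwann cell markers (1.55 and 0.948 CPM), adipocyte markers (3.09 and 2.87 CPM) and mast cell markers (1.55 and 3.96 CPM) were near 0 in native smooth muscle barcodes and in others alike, below the 4.64 CPM that 3 counts give in the members, so no difference could be read. At 0 UMIs in the members were MZB1, MS4A1, CD79A and CD79B of the B or plasma list, LEP, PLIN1 and CIDEC of the adipocyte list, CPA3, HDC and MS4A2 of the mast cell list and S100A8, CSF3R and S100A12 of the neutrophil list. The deepest member, with 40868 UMIs and S of 153, carried 54 UMIs of the endothelial list, and 25 members carried none of the 3 lists.

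The threshold separated barcodes that differ by few UMIs. The 16 members with S of 3 or 4 had ITGA8 at 500 CPM, MYLK at 350 CPM, TAGLN at 400 CPM (229 to 650) and the fibroblast gene DCN at 1201 CPM. ITGA8 was found in 8 of the 16 and TAGLN in 7. One barcode held 36 of their 48 DCN UMIs, and another held 6 of their 14 MYLK UMIs. The 17 barcodes with S of 2 that kept the margin over the other lists had 0 UMIs of ITGA8 and MYLK and DCN at 6985 CPM. Their TAGLN was at 258 CPM (157 to 398), an interval that overlaps that of the 16. A further 43 barcodes within the limits had S of at least 3 and missed the margin, with TAGLN at 58.4 CPM and ITGA8 at 15.9 CPM.

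The rule sets no limit on fibroblast transcripts, so the members were divided by the same margin on DCN, LUM, PDGFRA, PI16, SFRP2 and MFAP5. S was at least 2 times the fibroblast UMIs in 66 barcodes, or 81.5% (71.3% to 89.2%), and fell short of that in 15. In 16 members no fibroblast UMI was found, and in 7 the fibroblast UMIs exceeded S. The 6 genes summed to 1155 CPM in native smooth muscle barcodes and 3976 CPM in other native barcodes. DCN, the small proteoglycan decorin, was at 713 CPM in native smooth muscle barcodes and 11896 CPM in native fibroblasts, so the members held far less of it than fibroblasts but were not free of it.

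**Figure D2:**
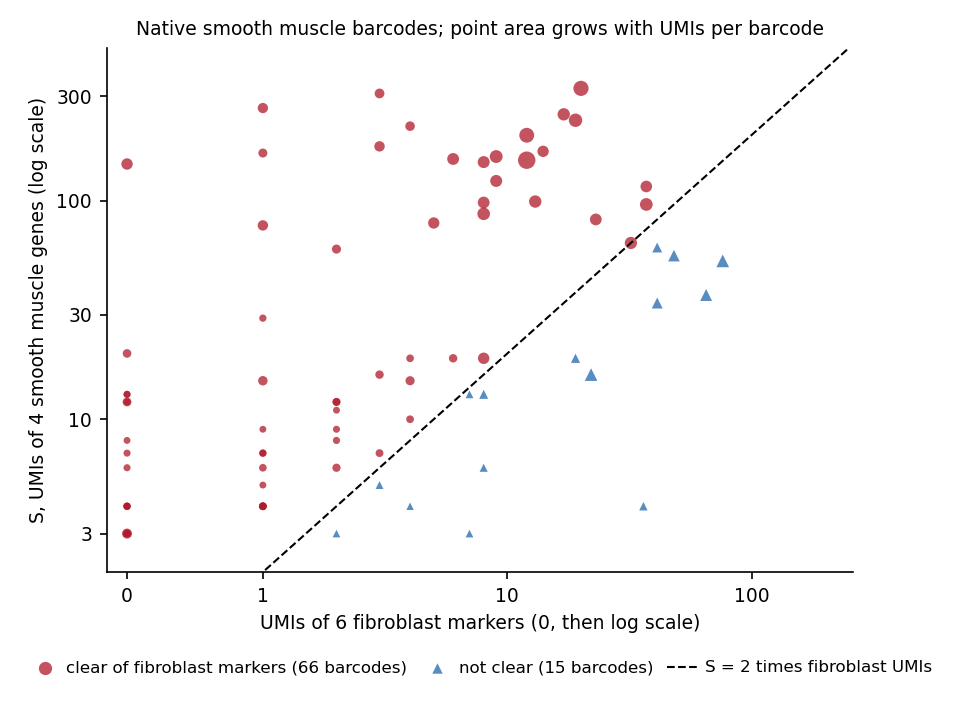
S (UMIs of the 4 smooth muscle genes, log scale) against the UMIs of 6 fibroblast markers (0, then log scale) in each of the 81 native smooth muscle barcodes, with point area growing with depth. The 66 circles lie on or above the dashed line where S is 2 times the fibroblast UMIs, and the 15 triangles lie below it.

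Contractile genes outside the rule were mostly higher in native smooth muscle barcodes. Over the whole transcriptome, 948 of 14202 genes with at least 50 UMIs (6.68%) reached 2-fold higher in native smooth muscle barcodes than in other native barcodes, and 1953 (13.8%) reached 2-fold lower. The median log2 ratio was -0.16. The gene lists are read against these shares. Of the 23 contractile and cytoskeletal genes outside the rule, 21 were compared, and 17 were higher, 1 lower and 3 neither, with a median log2 ratio of 2.09. MYL9, the regulatory myosin light chain, had quartiles of 0, 313 and 965 CPM per barcode and a maximum of 4405. Summed, it was at 680 CPM in native smooth muscle barcodes and 76.7 CPM in others, a ratio of 8.87 (8.01 to 9.80). Caldesmon (CALD1), which restrains actomyosin, was at 3146 CPM in native smooth muscle barcodes and 523 CPM in others. Tropomyosin TPM1 was at 1696 and 131 CPM in the same order, and the filament-binding nexilin NEXN at 1149 and 67.2 CPM.

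Genes that build and stabilise smooth muscle filaments also had high ratios. LMOD1, leiomodin, which nucleates actin filaments, was at 111 CPM in native smooth muscle barcodes and 3.20 CPM in others, a ratio of 34.8 (25.8 to 46.7). SYNPO2, a synaptopodin of the dense bodies, was at 388 CPM in native smooth muscle barcodes and 10.4 CPM in others, a ratio of 37.3 (31.8 to 43.7). The exception was PGM5, an adhesion-plaque protein, at 138 CPM in native smooth muscle barcodes and 547 CPM in others, where native endothelial barcodes reached 1068 CPM. ACTG2, the enteric-type smooth muscle actin, rested on 43 UMIs in 6 barcodes, of which 62.8% were in 1 barcode, so it describes a few cells and not the members as a whole.

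The machinery that switches contraction on and off was present on both sides. Of 18 contraction signalling genes compared, 8 were higher and 2 lower, with a median log2 ratio of 0.81. MYLK, the kinase that phosphorylates the myosin light chain, was at 377 CPM in native smooth muscle barcodes and 3.34 CPM in others, a ratio of 113 (91.4 to 140), and was detected in 55 of the 81. PPP1R14A, the inhibitor of myosin phosphatase known as CPI-17, was at 583 and 40.0 CPM in the same order. On the relaxing side, both subunits of the nitric oxide receptor guanylate cyclase stood out: GUCY1A1 was at 295 CPM in native smooth muscle barcodes and 10.8 CPM in others, and GUCY1B1 at 227 CPM in native smooth muscle barcodes and 2.18 CPM in others. PRKG1, the kinase that cyclic GMP activates, was at 371 and 24.0 CPM, the cyclic GMP phosphodiesterase PDE5A at 272 and 43.8 CPM, and the prostacyclin receptor PTGIR at 40.2 and 4.50 CPM, each in native smooth muscle barcodes and then in others. The 2 lower genes were RGS2, a brake on receptor signalling, at 57.2 CPM in native smooth muscle barcodes and 246 CPM in others, and the natriuretic peptide receptor NPR1, with 3 UMIs in the members (4.64 CPM) against 30.7 CPM in others, a ratio of 0.151 (0.0312 to 0.443).

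Ion handling genes were mostly higher. Of 15 compared, 10 were higher and 1 lower, with a median log2 ratio of 1.25. CACNA1C, the pore of the L-type calcium channel, was at 204 CPM in native smooth muscle barcodes and 13.6 CPM in others, a ratio of 15 (12.3 to 18.1). PLN, phospholamban, which restrains the calcium pump of the sarcoplasmic reticulum, was at 233 CPM in native smooth muscle barcodes and 4.24 CPM in others. The large-conductance potassium channel was represented by its pore KCNMA1 at 69.6 and 1.47 CPM and its smooth muscle subunit KCNMB1 at 159 and 30.7 CPM, in native smooth muscle barcodes and then in others. KCNAB1, an accessory subunit of voltage-gated potassium channels, reached 366 CPM in native smooth muscle barcodes against 4.26 CPM in others. RYR2, a calcium release channel, was at 841 CPM in native smooth muscle barcodes, while native endothelial barcodes held 763 CPM and other native barcodes together 367 CPM.

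Of 18 integrin and dystrophin complex genes compared, 10 were higher, 3 lower and 5 neither, with a median log2 ratio of 1.35. That median was 0.90 with equal weight of cells and 0.80 at 500 UMIs, both under 2-fold. Dystrophin (DMD), which links actin to the basement membrane, was at 1687 CPM in native smooth muscle barcodes and 61.8 CPM in others, a ratio of 27.3 (25.4 to 29.3). ITGA7, a laminin receptor of muscle, was at 51.0 CPM in native smooth muscle barcodes and 0.521 CPM in others, and sarcospan (SSPN) at 221 and 34.5 CPM. The lower ones included the fibronectin receptor ITGA5, at 17 CPM in native smooth muscle barcodes and 123 CPM in others, and caveolin CAV1, at 114 and 258 CPM, both of which were higher in endothelial barcodes (215 and 520 CPM).

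Basement membrane genes were mostly higher. Of 15 genes compared, 10 were higher and 1 lower, with a median log2 ratio of 2.02. COL4A1, the main chain of basement membrane collagen, had a median of 679 and a maximum of 6340 CPM over the 81 barcodes, with a lower quartile of 0. Summed, COL4A1 was at 1758 CPM in native smooth muscle barcodes and 19.2 CPM in others, a ratio of 91.5 (83.5 to 100), and its partner COL4A2 was at 645 and 14.7 CPM. The rarer chains COL4A5 and COL4A6 were at 49.5 and 43.3 CPM in native smooth muscle barcodes and at 0.758 and 0.379 CPM in others. LAMA2, the laminin chain that dystrophin complexes bind, was at 360 CPM in native smooth muscle barcodes and 50.4 CPM in others. COL18A1 was the lower one, at 86.6 CPM in native smooth muscle barcodes and 416 CPM in others, with 798 CPM in endothelial barcodes.

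Fibrillar collagens were shared with fibroblasts. Of 14 compared, 10 were higher and 0 lower than in other native barcodes, with a median log2 ratio of 1.27. COL3A1 was at 4428 CPM in native smooth muscle barcodes and 1671 CPM in others, a ratio of 2.65 (2.55 to 2.75), yet native fibroblasts held 7218 CPM. COL1A1 was at 2182 CPM in native smooth muscle barcodes, 5978 CPM in native fibroblasts and 1354 CPM in all other native barcodes, and it did not reach 2-fold against the others. COL14A1, a collagen of fibril surfaces, was at 1160 CPM in native smooth muscle barcodes and 345 CPM in others.

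Elastic fibre genes divided between the cell types of the wall. Of 17 compared, 7 were higher and 2 lower, with a median log2 ratio of 0.79. ELN, which encodes the elastin precursor, had quartiles of 274, 1127 and 2293 CPM over the 81 barcodes and a maximum of 9313. Its summed level was 2618 CPM in native smooth muscle barcodes, 2415 CPM in endothelial barcodes, 513 CPM in fibroblasts and 1290 CPM over all other native barcodes. Elastin transcripts were thus at a like level in smooth muscle and endothelial barcodes. At 500 UMIs, ELN was detected in 40.7% of native smooth muscle barcodes, 17.3% of macrophage barcodes and 3.80% of T or NK barcodes. Free RNA in this library was not removed, and its part in these values was not tested. LTBP1, which holds latent TGF-beta in the matrix, was at 747 CPM in native smooth muscle barcodes and 137 CPM in others, and the cross-linking enzyme LOXL1 at 187 and 24.9 CPM. FBLN5, a fibulin needed for elastic fibre assembly, was at 441 CPM in native smooth muscle barcodes and 138 CPM in others. FBLN2 had 3 UMIs in the members (4.64 CPM), against 197 CPM in other native barcodes, a ratio of 0.0235 (0.00485 to 0.0688), and native fibroblasts held 486 CPM.

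Some proteoglycan genes were higher in smooth muscle barcodes and others were higher in fibroblasts. Of 10 compared, 7 were higher and 3 lower, with a median log2 ratio of 2.33, and ACAN was at 0 UMIs. Biglycan (BGN) was at 2519 CPM in native smooth muscle barcodes, 548 CPM in native fibroblasts and 314 CPM in all other native barcodes. Asporin (ASPN) was at 439 CPM in native smooth muscle barcodes, 25 CPM in fibroblasts and 7.32 CPM in all others, with an interval of the ratio over the others of 50.9 to 70.7. Fibromodulin (FMOD) was at 688 CPM in native smooth muscle barcodes and 96.9 CPM in fibroblasts. Osteoglycin (OGN) was equally present in both, at 943 CPM in native smooth muscle barcodes and 949 CPM in fibroblasts. Lumican (LUM) was at 61.8 CPM in native smooth muscle barcodes and 1541 CPM in fibroblasts, the same side as DCN.

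**Figure D3:**
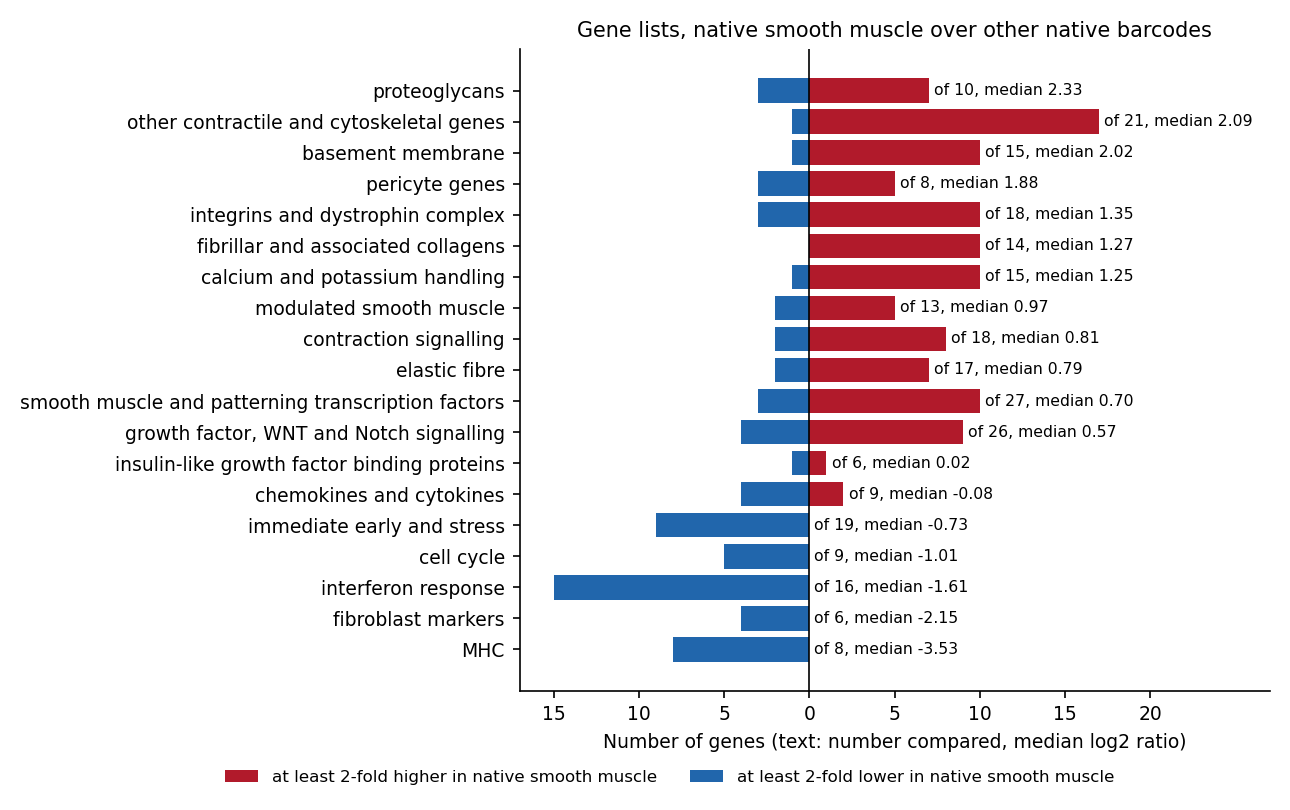
Number of genes of each list at least 2-fold higher (right, red) or lower (left, blue) in native smooth muscle barcodes than in other native barcodes, with the number compared and the median log2 ratio. Over all 14202 genes, 6.68% were higher and 13.8% lower, with a median of -0.16.

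The 15 genes with the highest log2 ratio over other native barcodes (5 CPM added) were ranked without the genes the rule used. APOE, the lipid-carrying apolipoprotein, was at 4301 CPM in native smooth muscle barcodes and 24.2 CPM in others, a ratio of 178 (165 to 191). Over the members it had quartiles of 0, 656 and 2759 CPM and a maximum of 21755, and it was detected in 55 of the 81. Native macrophages, a usual source of APOE, held only 8.10 CPM. POSTN, the matricellular protein periostin, had quartiles of 674, 2084 and 4129 CPM per barcode. Its summed level was 3997 CPM in native smooth muscle barcodes and 23.3 CPM in others, a ratio of 172 (160 to 185), and it was detected in 64 of the 81. At 500 UMIs, POSTN was found in 53.1% of native smooth muscle barcodes and 0.211% of T or NK barcodes. Without thinning, it was detected in 462 of the 11027 other native barcodes.

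WFDC1, a secreted protease-inhibitor-like protein, was at 1331 CPM in native smooth muscle barcodes and 17.4 CPM in others. WIF1, a secreted inhibitor of WNT ligands, was at 312 CPM in native smooth muscle barcodes and 1.97 CPM in others, a ratio of 159 (122 to 208), from 32 barcodes. The remaining genes among these 15 were the axon guidance ligand SEMA5A at 417 and 2.39 CPM, SGIP1 at 524 and 6.68 CPM, SH3BGR at 258 and 1.16 CPM, the integrin ligand EDIL3 at 246 and 1.04 CPM and FNDC1 at 203 and 0.829 CPM, each in native smooth muscle barcodes and then in others, with ITGA8, COL4A1, RGS5, MYLK, KCNAB1 and ASPN described with their groups.

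The secreted proteins MGP, IGFBP7 and CCN3 were detected in 79, 76 and 70 of the 81 barcodes. MGP, the matrix Gla protein that inhibits calcification of arteries, had quartiles of 3261, 8475 and 21467 CPM per barcode and a maximum of 74240. Summed MGP was at 21011 CPM in native smooth muscle barcodes, 14425 CPM in fibroblasts and 4762 CPM over all other native barcodes. IGFBP7, a binding protein of insulin-like growth factors found in vessel walls, was at 10089 CPM in native smooth muscle barcodes and 539 CPM in others, and was the only one of 6 IGF-binding protein genes compared that reached 2-fold higher, while 1 was lower. CCN3, a matricellular protein of the media, was at 6146 CPM in native smooth muscle barcodes and 188 CPM in others, a ratio of 32.7 (31.5 to 34.0). At 500 UMIs, MGP was found in 88.9% of native smooth muscle barcodes and in 41.8% of macrophage barcodes, while CCN3 was found in 76.5% and 4.25%. Without thinning, MGP was detected in 10027 and CCN3 in 2969 of the 11027 other native barcodes.

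Genes of modulated smooth muscle leaned higher, though not all in 1 direction. Of 13 compared, 5 were higher, 2 lower and 6 neither. Their median log2 ratio was 0.97, beside -0.16 over all genes, and 0.44 when thinned to 500 UMIs. TIMP1, an inhibitor of matrix proteases, was at 1529 CPM in native smooth muscle barcodes and 266 CPM in others. KLF4, a transcription factor that represses contractile genes in mice, was at 118 CPM in native smooth muscle barcodes and 246 CPM in others, and the injury-linked matrix proteins TNC and THBS1 were at 51.0 and 47.9 CPM in native smooth muscle barcodes and 1.73 and 8.91 CPM in others. All 95 UMIs of SPP1 (osteopontin) lay in 1 barcode, as did 62 of the 64 UMIs of the stromelysin MMP3. Fibronectin (FN1) was at 1820 CPM in native smooth muscle barcodes and 2177 CPM in others.

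Pericyte genes overlap with smooth muscle genes, and they were read member by member. Of 8 compared, 5 were higher and 3 lower, with a median log2 ratio of 1.88, and NDUFA4L2 and STEAP4 were at 0 UMIs. RGS5, a brake on G-protein signalling found in pericytes and arterial smooth muscle, was at 704 CPM in native smooth muscle barcodes and 5.02 CPM in others, a ratio of 140 (119 to 166). NOTCH3, the Notch receptor of mural cells, was at 176 CPM in native smooth muscle barcodes and 1.90 CPM in others, and the PDGF receptor PDGFRB at 267 and 23.1 CPM. CD248, a further mural and fibroblast gene, was at 10.8 CPM in native smooth muscle barcodes and 48.5 CPM in others. ITGA8 and RGS5 were found together in 32 members, ITGA8 alone in 23, RGS5 alone in 12 and neither in 14. Median depths in that order were 11143, 3645, 1824 and 1072.5 UMIs. A gene missed in a shallow barcode therefore cannot be told from one that is absent. Summed APOE was at 10473 CPM in the 12 barcodes with RGS5 alone, 5102 CPM in the 32 with both and 1294 CPM in the 23 with ITGA8 alone. In the 12, 3 barcodes held 328, 222 and 119 of the 691 APOE UMIs, so the summed value describes these few cells.

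Transcription factors known from smooth muscle ranged widely in level. Of 27 factors compared, 10 were higher and 3 lower, with a median log2 ratio of 0.70, and GATA4, TBX20 and FOXF1 were at 0 UMIs. Myocardin (MYOCD), the co-activator that drives contractile genes, rested on 27 UMIs in 15 barcodes, which gave 41.7 CPM in native smooth muscle barcodes and 0.379 CPM in others, a ratio of 110 (57.2 to 219). HAND2 was at 57.2 CPM in native smooth muscle barcodes and 0.971 CPM in others, and the Notch target HEYL at 77.3 and 1.37 CPM. NR2F2, a factor known for venous identity in endothelium, was at 416 CPM in native smooth muscle barcodes and 88.7 CPM in others, with 287 CPM in fibroblasts. MEIS2 was lower, at 86.6 CPM in native smooth muscle barcodes and 355 CPM in others.

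Signalling ligands were a mixed group, with 9 of 26 growth factor, WNT and Notch genes higher and 4 lower, and a median log2 ratio of 0.57. TGFB2 was at 199 CPM in native smooth muscle barcodes and 31.3 CPM in others, and TGFB3 at 64.9 and 5.76 CPM. BMP4 was at 147 CPM in native smooth muscle barcodes and 44.6 CPM in others, and ANGPT1, a ligand for the endothelial receptor TEK, at 102 and 15.6 CPM. VEGFA had 5 UMIs, or 7.73 CPM in native smooth muscle barcodes, against 52.2 CPM in others, and the WNT enhancer RSPO3 had 0. Among chemokines, 2 of 9 were higher and 4 lower. CXCL12, a chemokine of stromal cells, was at 731 CPM in native smooth muscle barcodes and 88.1 CPM in others, whereas CXCL8, which attracts neutrophils, was at 24.7 and 730 CPM. The 150 CCL2 UMIs lay in 6 barcodes, 53.3% of them in 1.

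Interferon and antigen presentation genes were low. Of 16 interferon response genes compared, 0 were higher and 15 lower, with a median log2 ratio of -1.61. ISG15 had 3 UMIs in the members, or 4.64 CPM, against 65.7 CPM in other native barcodes, a ratio of 0.0706 (0.0145 to 0.206). IFI6 was the 1 gene that did not reach 2-fold, at 360 CPM in native smooth muscle barcodes and 543 CPM in others. All 8 MHC genes compared were lower, with a median log2 ratio of -3.53: CD74, the class II chaperone, was at 119 CPM in native smooth muscle barcodes, 11146 CPM in macrophages, 1404 CPM in endothelial barcodes and 3007 CPM over all other native barcodes. B2M, the class I light chain, was at 35.6 CPM in native smooth muscle barcodes and 117 CPM in others, with 26.4 CPM in fibroblasts.

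Among the 15 genes with the lowest log2 ratio, ranked in the same way, 5 had 0 UMIs in the members. PTPRC, the pan-leukocyte phosphatase CD45, had 0 UMIs in the 81 barcodes and 244 CPM in other native barcodes, which puts it at least 52.7-fold lower at a floor of 3 counts over the members. CORO1A, IL1A, IQGAP2 and ARAP2 also had 0 UMIs and were at least 25.3-fold lower at that floor. KERA, a keratan sulfate proteoglycan, had 2 UMIs in the members (3.09 CPM) against 311 CPM in other native barcodes, a ratio of 0.00994 (0.00120 to 0.0359), and fibroblasts held 1363 CPM. SERPINF1, an antiangiogenic serpin, was at 15.5 CPM in native smooth muscle barcodes and 2273 CPM in fibroblasts. CCL26, an eosinophil chemokine, had 1 UMI in the members (1.55 CPM) against 172 CPM in other native barcodes, a ratio of 0.00897 (0.000227 to 0.0500), and fibroblasts held 619 CPM.

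Immediate early genes, which dissociation can induce, were not higher than in other native barcodes. Of 19 immediate early and stress genes compared, 0 were higher and 9 lower, with a median log2 ratio of -0.73. FOS was at 5848 CPM in native smooth muscle barcodes and 4568 CPM in others, and JUN at 2689 and 2460 CPM. NFKBIA, an inhibitor and target of NF-kB, was at 145 CPM in native smooth muscle barcodes and 944 CPM in others, with 3449 CPM in macrophages. Of 9 cell cycle genes compared, 0 were higher and 5 lower, with a median log2 ratio of -1.01, and TOP2A and CDK1 were at 0 UMIs.

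S chose the members, so what follows by S is a description of how they vary. Across the 81 barcodes, log CPM of S correlated with that of TAGLN at r = 0.67, MYL9 at 0.66, TPM1 at 0.51, PPP1R14A at 0.50 and LMOD1 at 0.49. The others among the 10 most like S of 1494 genes with at least 100 CPM were the intermediate filament vimentin (VIM) at 0.52, the actin-severing destrin (DSTN) at 0.49, the myosin light chain MYL6 at 0.48, SORBS2 at 0.47 and RGS5 at 0.46. The median r of the 1494 genes was near 0, and the lowest was -0.50 for ARHGEF12. The barcodes share 1 library and differ in depth, and log CPM of S correlated with log UMIs at 0.01. In the 59 members with at least 2000 UMIs, r with S was 0.69 for TAGLN and 0.77 for MYL9. ITGA8 and RGS5 correlated with each other at 0.05.

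The raw count S sorts the members by depth as well, with median depths of 1765.5, 4007 and 15046 UMIs over the steps used here. TAGLN was at 646 CPM in the 30 barcodes with S of 3 to 9, 985 CPM in the 20 with S of 10 to 29 and 3105 CPM in the 31 with S of 30 or more. MYL9 was at 185, 332 and 816 CPM over the same steps. ITGA8 was at 615, 747 and 476 CPM and SYNPO2 at 600, 332 and 371 CPM over those steps. Of the 72 ITGA8 UMIs with S of 10 to 29, 34 lay in 1 barcode, so the middle ITGA8 value leans on that cell.

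MGP and APOE differed with depth too. MGP was at 7221, 10212 and 25196 CPM in members with under 2000 UMIs, with 2000 to under 10000 and with 10000 or more, and APOE was at 1014, 1608 and 5337 CPM. TAGLN over the same depth steps was at 2475, 2105 and 2686 CPM. Over the steps of S, MGP was at 4075, 23306 and 22824 CPM and APOE at 492, 2593 and 5151 CPM. For MGP and APOE, a relation with the raw count S and one with depth therefore cannot be told apart in these steps. After thinning to 500 UMIs, the variance over mean was 9.23 for MGP, 5.87 for APOE, 3.48 for RGS5, 3.31 for IGFBP7 and 3.13 for CCN3, beside a median of 0.988 over 1494 genes.

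**Figure D4:**
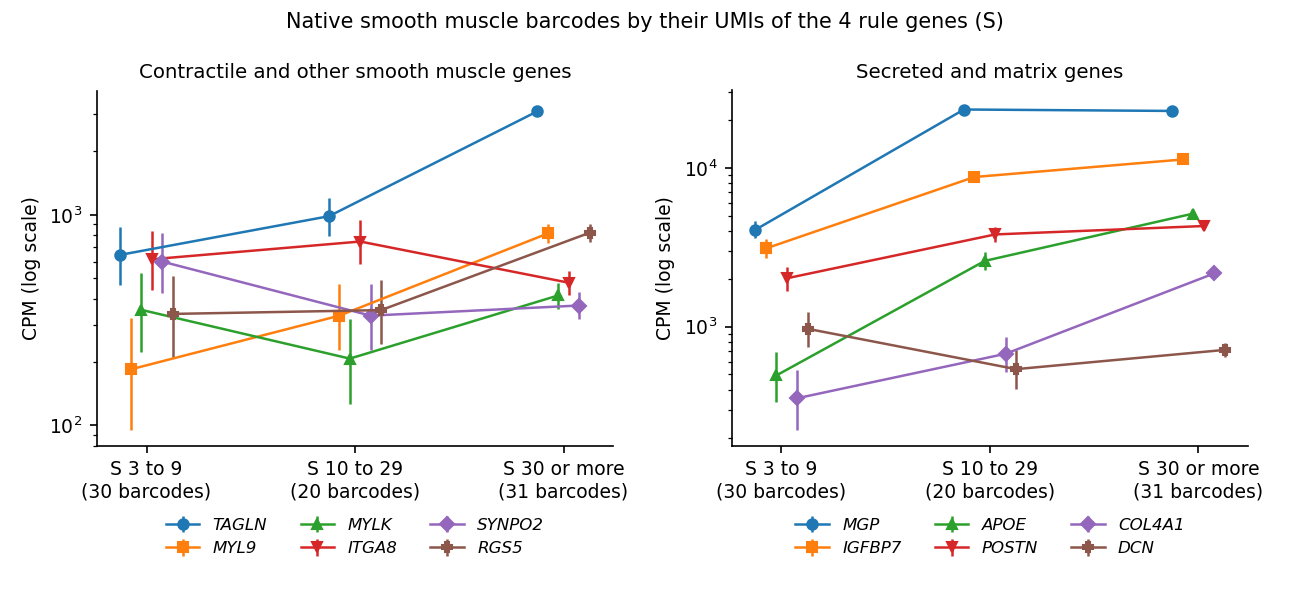
Summed CPM (log scale, bars are exact Poisson 95% intervals) of selected genes in native smooth muscle barcodes with S of 3 to 9 (30 barcodes), 10 to 29 (20) and 30 or more (31). TAGLN and MYL9 are highest at S of 30 or more, while ITGA8 and SYNPO2 are not. In the middle step, 34 of the 72 ITGA8 UMIs are in 1 barcode.

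The 66 barcodes clear of fibroblast markers were set beside the 15 that were not. Of 2335 genes compared, 135 (5.78%) reached 2-fold higher in the clear barcodes and 79 (3.38%) reached 2-fold lower. The division uses S, and TAGLN and RGS5 vary with S across the members (r = 0.67 and 0.46). Their differences are thus not independent of the division. TAGLN was at 2946 CPM in the clear barcodes and 767 CPM in the others, a ratio of 3.84 (3.11 to 4.80). RGS5 was at 849 CPM in the clear barcodes and 66.7 CPM in the others, a ratio of 12.7 (6.41 to 29.7). ITGA8 was at 566 CPM in the clear barcodes and 375 CPM in the others, where 12 of the 15 had it, so this gene was present on both sides. APOE was at 4552 CPM in the clear barcodes and 3200 CPM in the others. Of the 384 APOE UMIs in the 15, 233 lay in 1 barcode, so that summed value mostly describes 1 cell. MGP was at 16036 CPM in the clear barcodes and 42846 CPM in the others. Of the genes with the lowest ratio, ZBTB7C was at 49.4 CPM in the clear barcodes and 408 CPM in the others, and SERPINI1, a serpin of nervous tissue, at 87.3 and 417 CPM. The genes with the highest ratio were CCL2, SPP1, MMP3, ACTG2 and NCAM1, each at 0 UMIs in the 15 and with 53.3% to 100% of its UMIs in 1 of the clear barcodes. Whether the 15 barcodes are single cells or smooth muscle and fibroblast RNA in 1 droplet was not tested. The doublet scores did not work at their automatic threshold and so cannot tell. Removing the 1034 highest native scores, an alternative only, took out 1 of the 81.

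The same rule in the graft gave a second set of smooth muscle barcodes, taken from the explanted graft. Of 10469 genes compared, 819 (7.82%) reached 2-fold higher in native than in graft smooth muscle barcodes, and 1135 (10.8%) reached 2-fold lower. The median log2 ratio was 0.00. Each tissue is 1 library, and median depth was 4399 UMIs in native and 30107 in graft smooth muscle barcodes, so tissue, animal, library and depth cannot be told apart. Fibroblast margins were clear in 81.5% of native and 67.8% of graft smooth muscle barcodes. Macrophage markers summed to 125 CPM in native and 525 CPM in graft smooth muscle barcodes, and the part of either in these differences was not tested.

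Most contractile genes did not reach 2-fold between the tissues. Of 22 contractile genes compared, 1 was higher, 3 lower and 18 neither, with a median log2 ratio of -0.34. TAGLN was at 2542 CPM in native and 4198 CPM in graft smooth muscle barcodes, MYL9 at 680 and 652 CPM and MYLK at 377 and 447 CPM. Of the 4 genes that chose both sets, 1 reached 2-fold higher in native and 3 neither, with a median log2 ratio of -0.47. They summed to 7355 CPM in native and 8343 CPM in graft smooth muscle barcodes. The higher one was MYH11, at 2210 CPM in native and 747 CPM in graft smooth muscle barcodes. Of the contractile list, ACTG2 was among the lower ones, at 66.5 CPM in native and 696 CPM in graft smooth muscle barcodes. Outside the contractile list, most genes of the related lists did not reach 2-fold either. Higher in native were 2 of 17 contraction signalling genes (2 lower) and 3 of 14 ion handling genes (0 lower). Of 17 integrin and dystrophin complex genes, 5 were higher and 1 lower. Among the higher ones, PLN was at 233 CPM in native and 28.7 CPM in graft smooth muscle barcodes. GUCY1A1 was at 295 and 57.3 CPM and DMD at 1687 and 311 CPM in the same order. Each of these 3 had an interval of the ratio above 4.

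The 10 genes with the highest log2 ratio of native over graft (5 CPM added) were ranked in the same way. OGN was at 943 CPM in native and 2.64 CPM in graft smooth muscle barcodes, a ratio of 357 (234 to 574), and LAMA2 at 360 and 2.16 CPM, a ratio of 167 (103 to 286). WIF1 was at 312 CPM in native and 4.32 CPM in graft smooth muscle barcodes, a ratio of 72.2 (50.5 to 106). ITGA8 was at 530 CPM in native and 23.3 CPM in graft smooth muscle barcodes, a ratio of 22.8 (19.0 to 27.3). At 500 UMIs it was detected in 18.5% of native and 2.82% of graft smooth muscle barcodes. The collagen IV chain COL4A6 was at 43.3 and 0.721 CPM, the transcription factor ZBTB16, which glucocorticoids induce, at 216 and 4.20 CPM, and the prostaglandin-degrading enzyme HPGD at 95.9 and 0.480 CPM, native first. The other genes among the 10 highest were MDGA2, AOX1, PDZRN4 and C1QTNF7, with ratios of 30.1 to 67.3.

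Genes lower in native smooth muscle barcodes included those of fibrillar collagens, provisional matrix and proteases. Of 14 fibrillar and associated collagens, 1 was higher and 8 lower in native smooth muscle barcodes, with a median log2 ratio of -1.54. COL1A1 was at 2182 CPM in native and 12248 CPM in graft smooth muscle barcodes, and COL12A1 had 9 UMIs in native (13.9 CPM, 6.36 to 26.4) and 599 CPM in graft smooth muscle barcodes. THBS1 was at 47.9 CPM in native and 1674 CPM in graft smooth muscle barcodes, and FN1 at 1820 and 6193 CPM. The mechanically induced gene ANKRD1 was at 15.5 CPM in native and 991 CPM in graft smooth muscle barcodes.

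The collagenase gene MMP13 (entry ENSOARG00020029769 of 2 with this symbol) had 0 UMIs in native smooth muscle barcodes and 767 CPM in graft ones, at least 165-fold lower at a floor of 3 counts. MMP12, the elastase usually made by macrophages, and ACP5, an osteoclast phosphatase, also had 0 UMIs in native smooth muscle barcodes, against 221 and 164 CPM in graft ones, at least 47.7-fold and 35.4-fold lower at that floor. POSTN, in contrast, was at 3997 CPM in native and 4406 CPM in graft smooth muscle barcodes, and RGS5 at 704 and 572 CPM. Immediate early genes ran the other way, with 7 of 19 higher and 1 lower in native smooth muscle barcodes, among them FOS at 5848 CPM in native and 1982 CPM in graft barcodes.

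**Figure D5:**
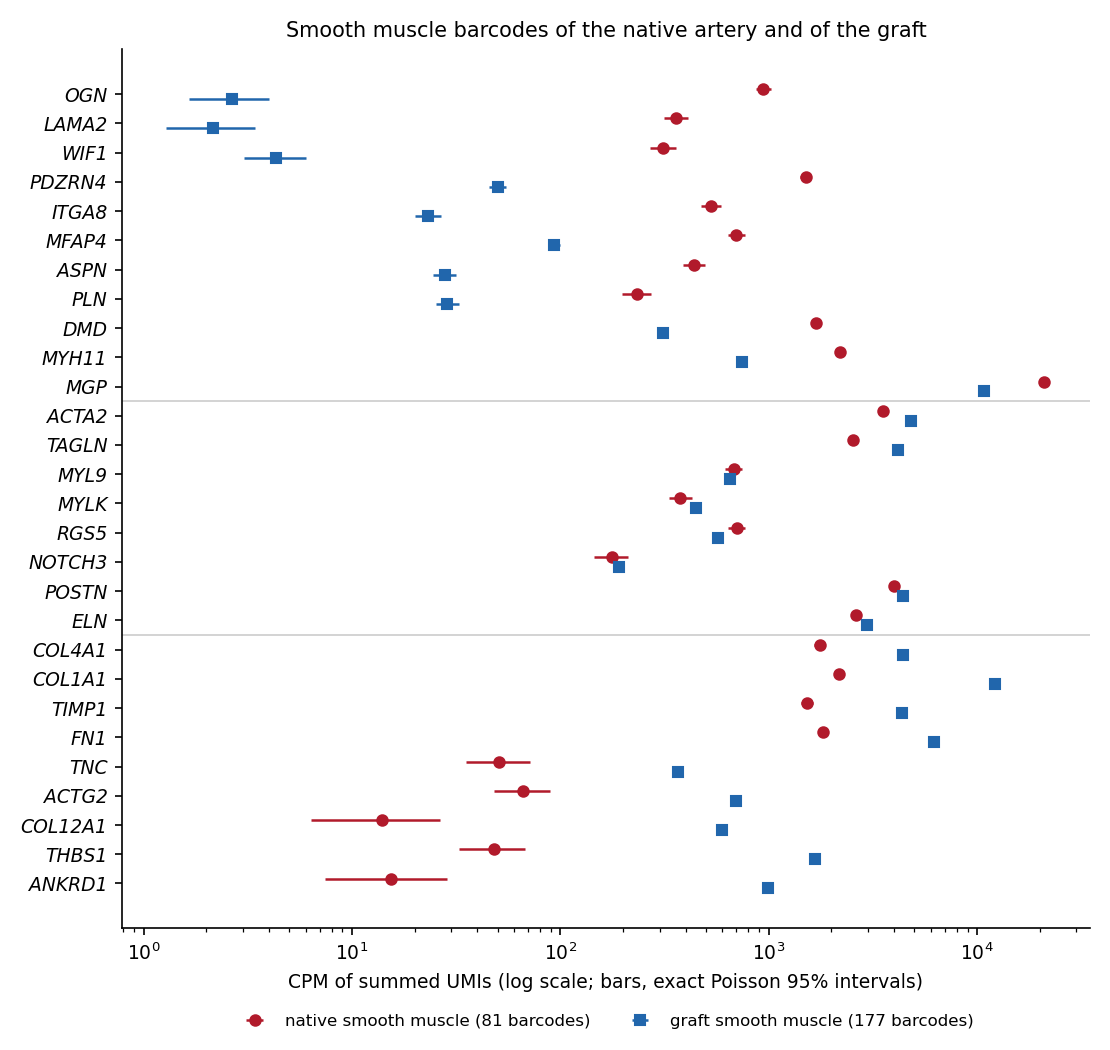
CPM (log scale, bars are exact Poisson 95% intervals) of selected genes in smooth muscle barcodes of the native artery (81) and of the graft (177). OGN, LAMA2, WIF1 and ITGA8 lie far to the right in the native artery, POSTN and RGS5 lie close together, and THBS1 and COL12A1 lie far to the right in the graft.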

How the data were processed

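The authors deposited UMI counts per gene and barcode, as whole numbers, in 1 filtered matrix for each library. Per the file headers, Cell Ranger 7.2.0 made these matrices. Seurat 5.0.0, R 4.3.3 and bcl2fastq 2.20.0.422 are listed in the submitters' processing notes, with no step given for any. The genome build is not given in the sources used here. The members and gene lists were chosen with earlier results of these data known.

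Counts were summed over barcodes and scaled to 1000000 (CPM) in Python 3.11.15 with numpy 2.4.6, scipy 1.17.1 and pandas 2.3.3. Genes with under 50 UMIs in both sides together were not compared. The same form of rule took 1744 native fibroblasts, 3948 endothelial, 1058 macrophage and 474 T or NK barcodes. Symbols were those of the files. Genes without a symbol, 22.7% of native UMIs, stayed in the CPM totals and in the counts of genes compared, but were not ranked or named. Listed symbols not in the files were not used here.

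Named genes were the marker genes, the 15 highest and 15 lowest log2 ratios over other native barcodes and the 10 of each other comparison, among genes with at least 50 CPM and 30 UMIs on the higher side. To these come the 4 listed genes of each list with the most CPM and those at 0, and the genes most correlated with S or most variable. Further genes named for their role were chosen after their values were seen. Scrublet in scanpy 1.11.5 marked 1 native barcode at its automatic threshold and so did not work. No doublets were removed in the values reported, and removing the 1034 highest native scores was an alternative. The calculation was tested on simulated counts with known ratios.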

Additional observations from a re-analysis of the deposited data

How the results depend on the processing

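The share of native smooth muscle barcodes (0.729%) was 1.06% of barcodes with at least 1000 UMIs and 0.459% with S of at least 10. The share clear of fibroblast markers (81.5%) was 91.4% at a margin of 1 and 69.1% at a margin of 4. With 20 CPM added in place of 5, genes higher than in other native barcodes numbered 579 (948 as reported) and lower ones 834 (1953), and genes higher and lower than in graft smooth muscle barcodes numbered 380 (819) and 444 (1135). With 1 CPM added, 3554 genes were lower than in other native barcodes. Thinned to 500 UMIs per barcode, 3730 were lower than in other native barcodes, and 41 higher and 61 lower than in graft smooth muscle barcodes, where fewer genes reach 50 UMIs. Without the 10 deepest members, an alternative chosen after the data were seen, the 4 counts were 1023, 2187, 887 and 1370. Single genes were varied only where ranked over other native or over graft smooth muscle barcodes, with the 4 rule genes, ITGA8 and MFAP4 added. All 57 of their ratios that reached 2-fold kept it in every alternative computed for all of them. The 35 computed against other native barcodes without limits did too. Most of these genes were picked for extreme ratios or chose the barcodes, so this does not extend to the other genes named. List medians over other native barcodes lost 2-fold for integrins (0.90 with equal weight of cells, 0.80 thinned), basement membrane (0.87 thinned), interferon response (-0.98 with 20 CPM) and cell cycle (-1.01 as reported, -0.99 with at least 1000 UMIs, -0.93 with the fibroblast margin, -0.84 with equal weight, -0.40 with 20 CPM and -0.83 without the 10 deepest members). Over graft smooth muscle barcodes, cell cycle (-0.54) and Schwann cell markers (-0.45) lost it with 20 CPM. The pericyte median against the graft was -0.997, and 0.01 where members also had to clear the fibroblast margin. Of all list medians, 8 of 46 changed sign with equal weight of cells and 7 of 37 when thinned, none of them at least 2-fold as reported. The cause of these shifts was not tested. The CPM of 1 UMI in the members limits genes near 0. No paired analysis was possible because each tissue has 1 library and no test was made.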

Other observations

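ITGA8 was also found in 50 of the 11027 other native barcodes, 17 of them with 2 or more UMIs. These 17 had a median of 2881 UMIs, with MYH11 at 121 CPM, TAGLN at 169 CPM, SYNPO2 at 201 CPM, POSTN at 395 CPM and DCN at 2569 CPM. RGS5 was at 0 UMIs in them, and MGP was at 6039 CPM. They were left out of the smooth muscle barcodes by S or by the margin over other lists, and they were chosen after the values of ITGA8 were seen.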
